A study of Mus musculus with 18 samples.

Results

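Neurturin (Nrtn), the other ligands of the glial cell line-derived neurotrophic factor (GDNF) family and their Ret receptor system were described in mouse mammary tumors driven by loss or mutation of p53. The 8 members are the ligands Nrtn, Gdnf, Artn and Pspn, the signaling receptor Ret and the co-receptors Gfra1, Gfra2 and Gfra3, out of 57126 genes in the count table. Nrtn was chosen for its level in MaP R172H/- against MaP -/- tumors, so its values are a description and are given no test. The other 7 members were named for their place in the same pathway, and the question was whether the receptors were present where Nrtn was raised.

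Total RNA was sequenced from 18 mammary tumors, which were 7 MaP R172H/-, 5 MaP R245W/- and 6 MaP -/- tumors. All mice received adenovirus carrying Cre recombinase in the mammary duct, which removed the wild-type Trp53 sequence in ductal epithelial cells. Tumor cells of the MaP R172H/- and MaP R245W/- groups then carried 1 missense Trp53 allele over a null allele, and those of the MaP -/- group carried no functional Trp53. Other cells of the tumor were not targeted by this recombination, and all groups were treated alike. The mice were female hybrids of the BALB/c and C57BL/6J strains. A Rosa26 LSL-TdTomato/+ reporter was labelled in 3 MaP R172H/- tumors, in 3 MaP R245W/- tumors and in none of the MaP -/- tumors. The 6 MaP -/- tumors came from 4 mice, with both tumors of mouse JM663 and both of mouse JM833 among them. Total counts ran from 23113578 to 27930163 in the MaP R172H/- group, from 30030630 to 37365062 in the MaP R245W/- group and from 24736337 to 32085794 in the MaP -/- group. The MaP R172H/- libraries were read on a HiSeq instrument and all others on a NovaSeq instrument, so genotype and platform cannot be told apart in any comparison with MaP R172H/- tumors. The publication lists all MaP R172H/- tumors as nonmetaplastic adenocarcinomas of luminal B or HER2-enriched subtype. It lists all others as triple-negative by Esr1, Pgr and Erbb2 transcripts, and most of them as metaplastic. Subtype therefore cannot be told apart from genotype in these comparisons either.

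Levels are given in CPM, which are counts relative to a library size scaled by TMM, and 3 counts in a library correspond to between 0.086 and 0.135 CPM. Because the tissue was sequenced in bulk, fewer cells of a type and less RNA per cell cannot be told apart. Trp53, the targeted gene, had means of 40.6 ± 13.5 CPM (SD, n = 7) for MaP R172H/-, 26.8 ± 19.9 CPM (SD, n = 5) for MaP R245W/- and 13.8 ± 4.33 CPM (SD, n = 6) for MaP -/- tumors. Its log2 fold change was 1.58 (SE 0.311, FDR = 0.00794 from edgeR) in MaP R172H/- against MaP -/- tumors. The value for MaP R245W/- against MaP -/- tumors was 0.95 (SE 0.438, FDR = 0.426 from edgeR). The libraries labelled YZ11 (10.8 CPM), JM1233 (11.4 CPM) and RM0014 (9.09 CPM) had Trp53 levels at or below the highest MaP -/- tumor, at 21.6 CPM. Calls in MaP R172H/- against MaP R245W/- tumors that were lost without these 3 libraries are therefore named as such, a choice made after seeing the data. Tumor JM779-T1 is titled with T1, which the series' text ties to the left side, while its column carries the letter R. For mice JM779 and JM836 the sample list of the publication marks the other tumor of each, T2, as sequenced, so which tumor these libraries came from was not settled, and the names here follow the labels.

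Ligands of the GDNF family are secreted dimers that bind a GFRA co-receptor tethered to the cell membrane, and the complex then brings together molecules of the receptor tyrosine kinase RET. Each ligand has a preferred co-receptor: GDNF binds GFRA1, neurturin GFRA2, artemin GFRA3 and persephin GFRA4, with some crossing between them. RET then signals through adaptor proteins to the MAPK and PI3K pathways. The family is best known for the survival and guidance of neurons, and RET is also present in some estrogen receptor-positive breast cancers.

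Nrtn (ENSMUSG00000039481.6) lies on the minus strand of chromosome 17 of GRCm39, chr17:57058324-57064569, as a single annotated transcript of 1063 bases. The 250 bases upstream of its start are shown because Nrtn was the only member whose MaP R172H/- levels lay apart from both other groups. They cover chr17:57064570-57064819 on the minus strand, and the capitals mark a GC box, GGGCGG, searched on both strands.
Nrtn promoter: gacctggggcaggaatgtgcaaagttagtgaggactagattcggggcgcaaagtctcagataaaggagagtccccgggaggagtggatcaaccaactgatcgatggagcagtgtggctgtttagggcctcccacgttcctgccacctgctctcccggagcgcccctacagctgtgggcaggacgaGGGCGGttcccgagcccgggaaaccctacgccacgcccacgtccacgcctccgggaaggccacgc
This stretch was 63.2% G and C, with 17 CG pairs. A GC box was found in the same window of 38% of 14678 tested protein-coding genes, and among the members in those of Gdnf, Artn, Gfra2 and Gfra3. The nuclear receptor Nr5a2 was examined in the study, and its binding motif TCAAGGNCA was searched here as an exact match on both strands of the 10 kb upstream of each start. Nrtn had 2 matches, which are shown with 10 bases on each side, read in the direction of Nrtn and with the match in capitals.
Nrtn upstream match at chr17:57069679-57069687: ttgccagaaaTGACCTTGAatccctgatt
Nrtn upstream match at chr17:57068630-57068638: aatcaggagtTCAAGGTCAtccttgactg
The first lies 5118 bases upstream of the Nrtn start, in an intron of the neighboring gene Dus3l, and the second 4069 bases upstream, between Nrtn and Dus3l. A match was present in this window for 74.1% of the genes searched, so its presence does not set Nrtn apart. No match fell in the 250 bases shown, a window in which 1.87% of genes held one. Nr5a2 itself had means of 1.57 ± 1.65 CPM (SD, n = 7) for MaP R172H/-, 4.25 ± 3.03 CPM (SD, n = 5) for MaP R245W/- and 3.04 ± 1.43 CPM (SD, n = 6) for MaP -/- tumors. Its log2 fold change in MaP R172H/- against MaP -/- tumors was -0.93 (SE 0.558, FDR = 0.325 from edgeR). The study scanned for motifs with MEME-SEA and FIMO, so the shares of genes given here are not those of the study. It also reported by qRT-PCR that Nrtn rose when p53R172H was overexpressed in a Trp53-null mammary tumor cell line.

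Nrtn was well above the count floor in all 7 MaP R172H/- tumors and low or near 0 in the other 11. Across MaP R172H/- tumors it ran from 3.91 CPM in YZ10 through a median of 5.67 CPM in YZ4 to 9.63 CPM in YZ6, or from 95 to 246 counts. Nrtn in MaP R245W/- tumors was 0.209 CPM in JM1233, 1.14 CPM in JM1564, 0.975 CPM in RM0014, 0 in JM1126 and 1.68 CPM in JM1133. Among MaP -/- tumors it ran from 0.0323 CPM in JM779-T1, a single count, through a median of 0.635 CPM to 0.753 CPM in JM836-T1. The lowest MaP R172H/- tumor thus lay above the highest of the other 11, JM1133. The group means were 6.08 ± 1.85 CPM (SD, n = 7), 0.801 ± 0.691 CPM (SD, n = 5) and 0.483 ± 0.315 CPM (SD, n = 6). The log2 fold change of Nrtn was 3.68 (SE 0.548) against MaP -/- tumors and 2.92 (SE 0.794) against MaP R245W/- tumors, both sharing the MaP R172H/- libraries that chose the gene. In the latter comparison it was 2.74 without YZ11, RM0014 and JM1233. Of all genes tested, 2.01% lay wholly higher in MaP R172H/- than in MaP -/- tumors, and 1.78% wholly higher than in MaP R245W/- tumors. MaP R245W/- and MaP -/- tumors overlapped, with a log2 fold change of 0.72 (SE 0.890), given with no test because the MaP -/- tumors also entered the choice of Nrtn. YZ11, the MaP R172H/- library with low Trp53, held 4.65 CPM of Nrtn. The 3 tumors with the TdTomato reporter, YZ2 (5.44 CPM), YZ6 (9.63 CPM) and YZ10 (3.91 CPM), spanned the range of the other 4.

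**Figure D1:**
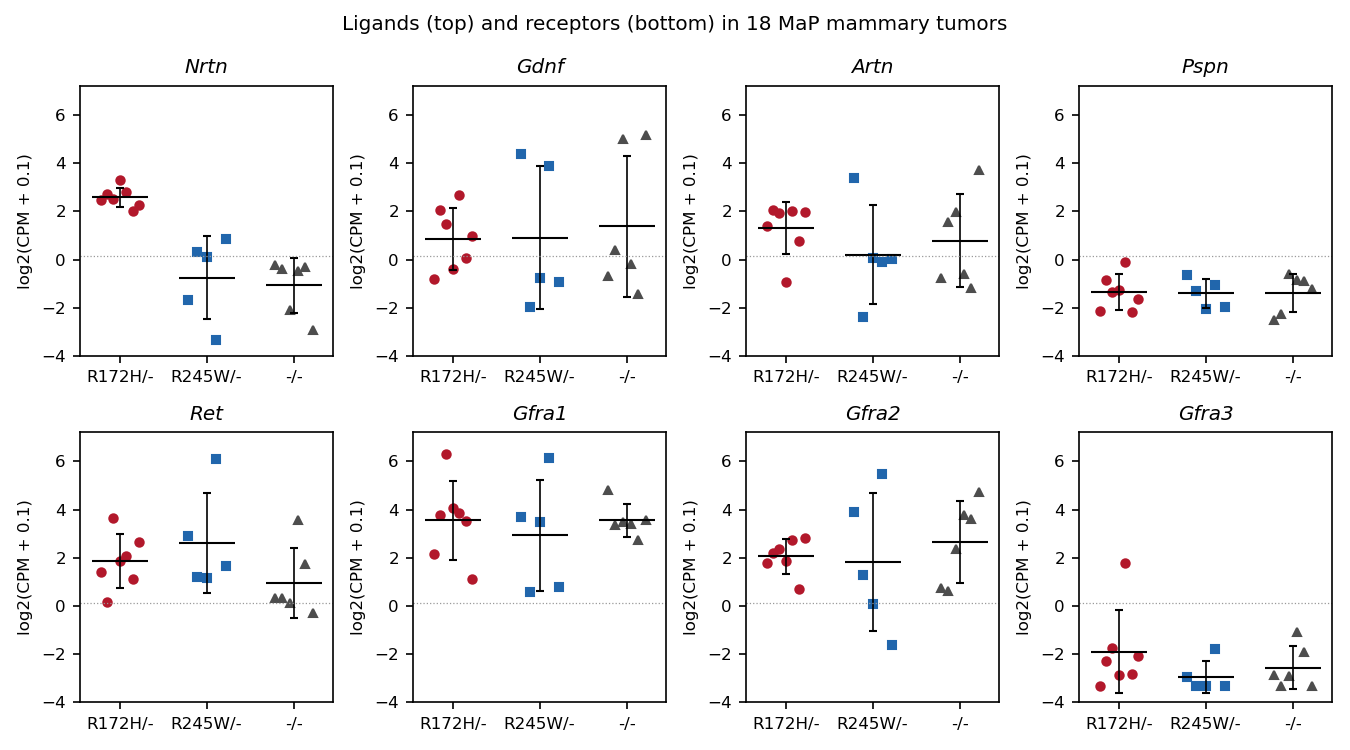
Level of each ligand (top) and receptor (bottom) as log2(CPM + 0.1) in 7 MaP R172H/-, 5 MaP R245W/- and 6 MaP -/- tumors, with 1 point per tumor, the group mean as a horizontal line, its SD as an error bar and a dotted line at 1 CPM. Nrtn in every MaP R172H/- tumor lies above every other tumor, while the groups overlap for the other 7 genes.

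Gdnf, the ligand that prefers GFRA1, was high in 4 tumors outside the MaP R172H/- group. Its MaP R172H/- levels ran from 0.475 CPM in YZ2 through a median of 1.85 CPM in YZ11 to 6.25 CPM in YZ7. Gdnf in MaP R245W/- tumors was 20.5 CPM in JM1233, 0.155 CPM in JM1564, 0.487 CPM in RM0014, 14.6 CPM in JM1126 and 0.420 CPM in JM1133. Among MaP -/- tumors the lowest was 0.270 CPM in JM833-T2, the median 0.985 CPM and the highest 36.1 CPM in JM779-T1, followed by 31.5 CPM in JM663-T2. All groups overlapped. The other tumor of mouse JM663 held 1.198 CPM, so the tumors of this mouse differed widely. Those of mouse JM833 were both low, at 0.771 CPM in JM833-T1 and 0.270 CPM in JM833-T2. Gdnf differed by -2.29 on the log2 scale (SE 1.11, FDR = 0.221 from edgeR) in MaP R172H/- against MaP -/- tumors, and of -1.49 without JM779-T1. Against MaP R245W/- tumors it was -1.58 (SE 1.25, FDR = 0.454 from edgeR), and -0.70 without JM1233.

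Artn encodes artemin, the ligand of GFRA3, and was at 1 CPM or more in 10 of the 18 tumors. Artn in MaP R172H/- tumors ran from 0.430 CPM in YZ6 through a median of 3.68 CPM in YZ4 to 4.06 CPM in YZ3. Across MaP R245W/- tumors it was 10.4 CPM in JM1233, 0.0927 CPM in JM1564, 0.946 CPM in RM0014, 0.832 CPM in JM1126 and 0.916 CPM in JM1133. Among MaP -/- tumors it ran from 0.338 CPM in JM833-T2 through a median of 1.69 CPM to 12.9 CPM in JM779-T1. The 2 highest Artn tumors, JM779-T1 and JM1233, were also among the 4 with the highest Gdnf. Artn differed by -0.29 on the log2 scale (SE 0.783, FDR = 0.852 from edgeR) in MaP R172H/- against MaP -/- tumors, and 0.86 without JM779-T1. The value against MaP R245W/- tumors was 0.11 (SE 0.964, FDR = 0.956 from edgeR), and 2.04 without JM1233.

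Pspn, which encodes persephin, was below 1 CPM in every tumor, and at 3 counts or fewer in 4 of 18. Its highest level was 0.836 CPM in YZ7, or 19 counts, and its median over 18 tumors was 0.311 CPM. It overlaps Alkbh7 on the opposite strand, and since the strand setting of the counting was not given in the sources used here, some of these reads may belong to that gene. Pspn passed the filter on low counts in both comparisons with MaP R245W/- tumors but not between MaP R172H/- and MaP -/- tumors.

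Ret, the kinase through which all of these ligands signal, was present in every MaP R172H/- tumor at a low level. It ran from 1.02 CPM in YZ3 through a median of 3.56 CPM in YZ6 to 12.5 CPM in YZ4. Ret in MaP R245W/- tumors was 7.43 CPM in JM1233, 2.19 CPM in JM1564, 2.12 CPM in RM0014, 69.2 CPM in JM1126 and 3.05 CPM in JM1133. Within the MaP -/- group it ran from 0.711 CPM in JM779-T1 through a median of 1.16 CPM to 11.7 CPM in JM833-T1. The groups overlapped, and JM1126 stood far above all other tumors. Ret differed by 0.57 on the log2 scale (SE 0.719, FDR = 0.666 from edgeR) in MaP R172H/- against MaP -/- tumors, with 0.03 without YZ4 and 1.69 without JM833-T1. For MaP R245W/- against MaP -/- tumors it was 2.40 (SE 1.10, FDR = 0.424 from edgeR), with 0.23 without JM1126 and 3.53 without JM833-T1. For MaP R172H/- against MaP R245W/- tumors it was -1.87 (SE 0.920, FDR = 0.208 from edgeR), and it turned to 0.32 without JM1126.

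Gfra2, the preferred co-receptor of neurturin, was also present in every MaP R172H/- tumor. It ran from 1.52 CPM in YZ10 through a median of 4.45 CPM in YZ3 to 6.95 CPM in YZ11. Gfra2 in MaP R245W/- tumors was 14.8 CPM in JM1233, 2.32 CPM in JM1564, 0.946 CPM in RM0014, 44.1 CPM in JM1126 and 0.229 CPM in JM1133. Within the MaP -/- group it ran from 1.45 CPM in JM663-T1 through a median of 8.61 CPM to 26.4 CPM in JM779-T1. The MaP R172H/- levels lay within the range of both other groups. Gfra2 differed by -1.17 on the log2 scale (SE 0.610, FDR = 0.258 from edgeR) against MaP -/- tumors, and -0.57 without JM779-T1. Against MaP R245W/- tumors it was -1.48 (SE 0.914, FDR = 0.322 from edgeR), and -0.02 without JM1126.

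Gfra1, the preferred co-receptor of GDNF, was present in all 18 tumors. Gfra1 in MaP R172H/- tumors ran from 2.08 CPM in YZ11 through a median of 13.7 CPM in YZ3 to 78.4 CPM in YZ4. Across MaP R245W/- tumors it was 13.0 CPM in JM1233, 1.39 CPM in JM1564, 11.2 CPM in RM0014, 69.8 CPM in JM1126 and 1.64 CPM in JM1133. Within the MaP -/- group it ran from 6.62 CPM in JM833-T2 through a median of 10.9 CPM to 28.4 CPM in JM836-T1. All groups overlapped, and a single tumor stood above the rest in each. Gfra1 differed by 0.66 on the log2 scale (SE 0.671, FDR = 0.583 from edgeR) in MaP R172H/- against MaP -/- tumors, and it turned to -0.32 without YZ4. Against MaP R245W/- tumors it was 0.06 (SE 0.869, FDR = 0.976 from edgeR), with -0.89 without YZ4 and 1.58 without JM1126.

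Gfra3, the co-receptor of artemin, was at 3 counts or fewer in 13 of the 18 tumors and passed the filter in no comparison. YZ7 held 3.39 CPM, or 77 counts, and the next highest was JM833-T1 at 0.370 CPM. Gfra4, the co-receptor of persephin, had means of 1.296 ± 1.15 CPM (SD, n = 7) for MaP R172H/-, 2.74 ± 2.05 CPM (SD, n = 5) for MaP R245W/- and 2.30 ± 2.30 CPM (SD, n = 6) for MaP -/- tumors. Its log2 fold change in MaP R172H/- against MaP -/- tumors was -0.80 (SE 0.606, FDR = 0.440 from edgeR).

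Of the 5 members other than Nrtn tested between MaP R172H/- and MaP -/- tumors, 0 passed an FDR of 0.05 in edgeR's quasi-likelihood test, where 8.4% of all genes tested did. Of the 6 tested between MaP R172H/- and MaP R245W/- tumors, 0 passed, where 9.4% of all genes did. Of the 6 tested between MaP R245W/- and MaP -/- tumors, 0 passed, as did 0% of all genes. In each comparison 0 of these members had an unadjusted p under 0.05, 0 were called by DESeq2 and 0 were called without YZ11, RM0014 and JM1233. Over all genes, 24.7% had such a p in MaP R172H/- against MaP -/-, 11.8% in MaP R245W/- against MaP -/- and 25.9% in MaP R172H/- against MaP R245W/- tumors, and DESeq2 called 11.4%, 1.71% and 12.4% of the genes to which it gave an adjusted p. Without YZ11, RM0014 and JM1233, edgeR called 1327 of 20745, 0 of 22684 and 1086 of 23651 genes in the same order. The standard errors of the fold changes of Ret, Gfra1 and Gfra2 lay between 0.610 and 1.13 on the log2 scale.

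**Figure D2:**
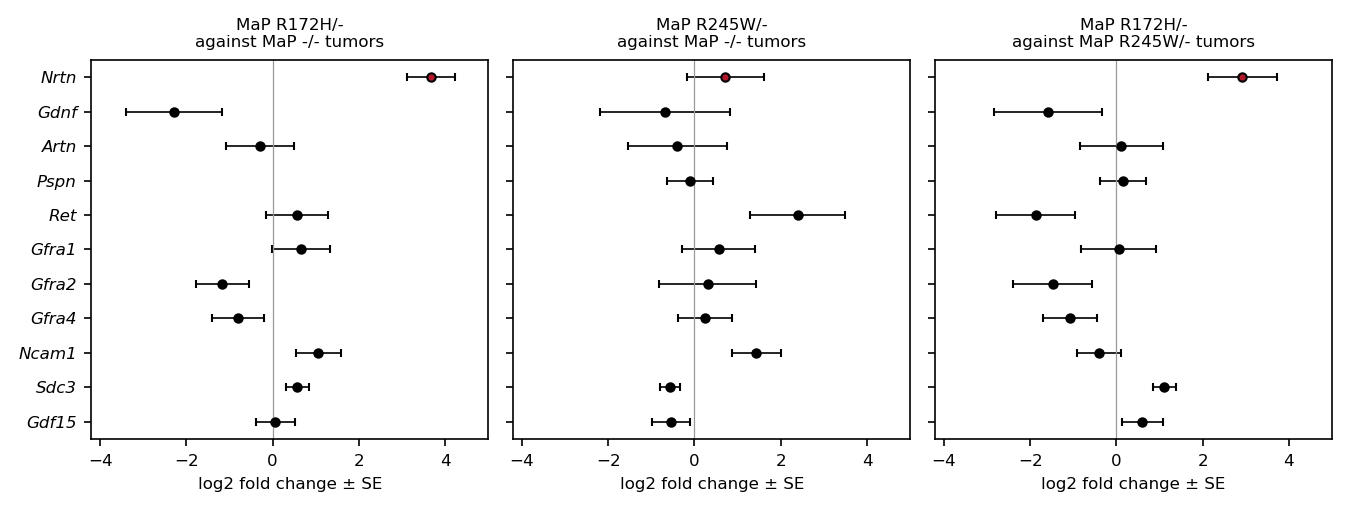
Log2 fold change (horizontal axis, with SE as error bars) of ligands and receptors in the 3 comparisons, from edgeR, with Nrtn in red and genes that were not tested left blank. Nrtn, which was chosen on MaP R172H/- against MaP -/- tumors, is at 3.68 there, and of the other genes only Sdc3 in MaP R172H/- against MaP R245W/- tumors reached an FDR below 0.05.

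At a level of 1 CPM or more, Nrtn was present in all 7 MaP R172H/- tumors, 2 of 5 MaP R245W/- tumors and 0 of 6 MaP -/- tumors. These counts depend on the threshold: at 0.5 CPM or more Nrtn was present in 7 of 7, 3 of 5 and 4 of 6 tumors, and Ret with Gfra2 in 7 of 7, 4 of 5 and 6 of 6. At 1 CPM Ret and Gfra2 were both present together with Nrtn in all 7 MaP R172H/- tumors. This threshold is not scaled to length, and the exons span 1063 bases in Nrtn, 3662 in Gfra2 and 7408 in Ret. The lowest Ret of these tumors, 1.02 CPM in YZ3, was 29 counts, or 0.138 CPM per kb of exon. Of the 2 MaP R245W/- tumors with Nrtn, JM1564 held both Ret and Gfra2, while JM1133 held Ret at 3.05 CPM and Gfra2 at only 0.229 CPM. The receptors were not limited to the tumors with Nrtn: Ret and Gfra2 were both present in 3 of 5 MaP R245W/- and 4 of 6 MaP -/- tumors. Presence at this level in every MaP R172H/- tumor was shared by 30.7% of the genes with a count in any tumor. JM1126 held the highest Ret and Gfra2 of all 18 tumors and the second highest Gfra1, but 0 counts of Nrtn, which allows a level of up to 0.0959 CPM (3 counts). YZ4 held the highest Ret and Gfra1 of the MaP R172H/- group, with Nrtn at 5.67 CPM, the median of that group.

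Counts scaled to the length of the exons allow the genes to be set against each other. On this scale of CPM per kb, Nrtn had the highest median of the family in MaP R172H/- tumors, at 5.33, and its range of 3.67 to 9.05 overlapped that of Gfra1. Gfra1 followed with a median of 2.16 CPM per kb, Gfra2 with 1.22 and Artn with 1.06. Pspn (0.629), Gfra4 (0.520), Gdnf (0.503) and Ret (0.481) followed with overlapping ranges, and Gfra3 followed at 0.0531 CPM per kb, with only Gfral, at a median of 0, below it. In MaP -/- tumors the order of medians began with Gfra2 (2.35 CPM per kb) and Gfra1 (1.71), and Nrtn had rank 5 at 0.598. In MaP R245W/- tumors Gfra1 (1.76 CPM per kb) and Gfra4 (1.10) came first, and Nrtn had rank 3 at 0.917. Neighbors in these orders overlapped in range in each group, while Nrtn lay wholly above Gfra2 in MaP R172H/- tumors.

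**Figure D3:**
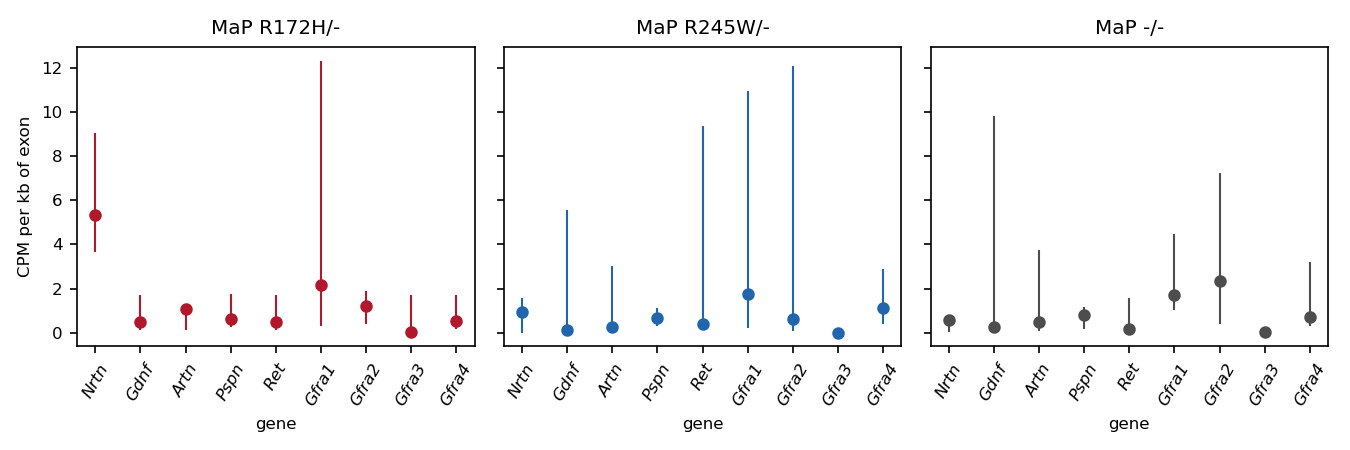
Median (point) and range (line) of the level per exon length, in CPM per kb, of 4 ligands, Ret and 4 co-receptors in each group. Nrtn leads in MaP R172H/- tumors with a median of 5.33, and the long lines for Ret, Gfra1 and Gfra2 in MaP R245W/- tumors end at JM1126.

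Other receptors of the family can bind these ligands or related ones. Ncam1, a cell adhesion molecule that can serve as a RET-independent receptor, had means of 38.6 ± 15.9 CPM (SD, n = 7) for MaP R172H/-, 51.2 ± 20.6 CPM (SD, n = 5) for MaP R245W/- and 18.9 ± 12.7 CPM (SD, n = 6) for MaP -/- tumors. Its log2 fold change in MaP R172H/- against MaP -/- tumors was 1.07 (SE 0.528, FDR = 0.232 from edgeR). Sdc3, a heparan sulfate proteoglycan that binds GDNF, neurturin and artemin, was at 107 ± 42.4 CPM (SD, n = 7), 49.8 ± 8.57 CPM (SD, n = 5) and 73.4 ± 24.8 CPM (SD, n = 6) in the same order. Sdc3 was higher in MaP R172H/- than in MaP R245W/- tumors by 1.11 on the log2 scale (SE 0.265, FDR = 0.0137 from edgeR) and was called with any single tumor left out, although the ranges met between YZ11 (62.7 CPM) and JM1126 (63.8 CPM). Without YZ11, RM0014 and JM1233 the value was 1.10 with an FDR of 0.0585 from edgeR. Against MaP -/- tumors it was 0.57 (SE 0.266, FDR = 0.201 from edgeR). Gfral, the receptor of the distant family member GDF15, was above 3 counts only in YZ2, with 8 counts. Gdf15 ran from 0.155 to 1.54 CPM over the 18 tumors.

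Downstream of RET, a list of 20 adaptors and effectors held 19 tested genes, of which 0 passed an FDR of 0.05 in edgeR in any comparison. At an unadjusted p under 0.05 there were 1, 2 and 4 in MaP R172H/- against MaP -/-, MaP R245W/- against MaP -/- and MaP R172H/- against MaP R245W/- tumors, and DESeq2 called 0, 0 and 4. Over all genes the shares were 24.7%, 11.8% and 25.9% at such a p and 11.4%, 1.71% and 12.4% by DESeq2. At an FDR of 0.05 in edgeR they were 8.4%, 0% and 9.4%. The median log2 fold change in MaP R172H/- against MaP -/- tumors was 0.02, beside 0.00 over all genes. The most abundant were Pik3r1, a regulatory subunit of PI3K, with a log2 fold change of 0.50 (SE 0.368), and the phosphatase Ptpn11 with 0.02 (SE 0.147). Of 8 genes of RET turnover, such as the ubiquitin ligases Cbl and Nedd4 and the phosphatase Ptprf, 0 passed in any comparison. The shares of all genes that passed were the same 8.4%, 0% and 9.4%. At an unadjusted p under 0.05 there were 2, 1 and 0 in the same order of comparisons, and DESeq2 called 1, 0 and 0, beside the same shares of all genes.

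Feedback and target genes of ERK, the kinase at the end of the MAPK pathway, were lower where they passed the test. Of 16 tested, 3 fell and 0 rose in MaP R172H/- against MaP -/- tumors, where 4.73% of all genes fell. The median log2 fold change of the list was -0.33, and 7 of the 16 were above 0. An unadjusted p under 0.05 was reached by 3 of the 16, and DESeq2 called 3, where the shares of all genes were 24.7% and 11.4%. Spred1, an inhibitor of RAS signaling, was at 149 CPM and 251 CPM on average, a log2 fold change of -0.74 (SE 0.195, FDR = 0.0336 from edgeR). The transcription factor gene Etv1 had -1.87 (SE 0.506, FDR = 0.0367 from edgeR), and the immediate early gene Fos -1.04 (SE 0.303, FDR = 0.0483 from edgeR). These calls were near the threshold: with 1 of the 13 tumors left out at a time, Spred1 was lost in 7 fits (without YZ4, YZ6, YZ10, JM836-T1, JM663-T1, JM663-T2 or JM779-T1, FDR up to 0.0681), Etv1 in 6 (without YZ3, YZ7, YZ11, JM836-T1, JM663-T1 or JM779-T1, FDR up to 0.0899) and Fos in 11, all but those without JM663-T1 or JM663-T2 (FDR up to 0.105). Dusp6, the most abundant of the list and an ERK phosphatase, had a log2 fold change of 0.04 (SE 0.397). Of the 16, 3 also fell in MaP R172H/- against MaP R245W/- tumors, where 6.49% of all genes did. These were Spred1 (-0.89, FDR = 0.00816), Etv1 (-2.23, FDR = 0.0310) and Dusp5 (-2.01, FDR = 0.0429, all from edgeR). Without YZ11, RM0014 and JM1233 together Etv1 was lost (FDR = 0.0742 from edgeR). Spred1 stayed called with any single tumor left out, while Etv1 was lost in 5 of 12 fits (without YZ3, YZ4, YZ11, JM1564 or RM0014, FDR up to 0.136, -1.42 without JM1564) and Dusp5 in 9, all but those without JM1233, JM1564 or JM1133 (FDR up to 0.367, -0.73 without JM1126).

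Among 12 transcription factors linked to Ret, 8 were tested and 1 rose in MaP R172H/- against MaP -/- tumors, where 3.67% of all genes rose. This was Rara, the retinoic acid receptor alpha, at 75.1 CPM against 33.8 CPM on average and a log2 fold change of 1.16 (SE 0.261, FDR = 0.0150 from edgeR), called with any single tumor left out. Sox10, a neural crest factor also found in mammary epithelium and the most abundant of the list, was at 362 CPM and 91.9 CPM on average, with a log2 fold change of 2.01 (SE 0.615, FDR = 0.0606 from edgeR). Against MaP R245W/- tumors 2 rose, where 2.91% of all genes did. Foxa1, a pioneer factor of the estrogen receptor, differed by 4.07 on the log2 scale (FDR = 0.0305) and Rara by 0.93 (FDR = 0.0496, both from edgeR). Foxa1 was lost in 5 of the 12 fits without 1 tumor (YZ4, JM1233, JM1564, RM0014 or JM1126, FDR up to 0.0739). Its value was 3.21 without YZ4 and 4.95 without JM1133. Rara was lost in 9 of these fits, all but those without YZ4, YZ6 or JM1126 (FDR up to 0.101). Both were lost without YZ11, RM0014 and JM1233 together (Foxa1 FDR = 0.187, and Rara 0.63 with FDR = 0.252, from edgeR). Of 9 tested genes of the estrogen receptor and its targets, Pgr (4.48, FDR = 0.0484) and Wnt4 (3.36, FDR = 0.0357) rose and Tnfsf11 (-3.48, FDR = 0.0332, all from edgeR) fell in the same comparison, where 6.49% of all genes fell. All 3 were lost without YZ11, RM0014 and JM1233 together, with an FDR from edgeR of 0.171 for Pgr, 0.211 for Wnt4 and 0.0734 for Tnfsf11. Pgr was lost in 8 of the 12 fits without 1 tumor, all but those without YZ6, YZ7, YZ10 or YZ11 (FDR up to 0.211). Wnt4 was lost in 7, without YZ4, YZ11 or any of the MaP R245W/- tumors (FDR up to 0.0842), and Tnfsf11 in 7, without JM1126 or any MaP R172H/- tumor but YZ3 (FDR up to 0.258). Tnfsf11, the RANK ligand, was the only called gene of this list in MaP R172H/- against MaP -/- tumors, where 4.73% of all genes fell, with -3.65 (SE 0.779, FDR = 0.0121 from edgeR). It was called with any single tumor left out, at -2.51 without JM779-T1. Against MaP R245W/- tumors Pgr was 1.59 and Wnt4 2.74 without YZ4, and Tnfsf11 was -1.64 without JM1126.

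Of the 6 neurotrophin ligands and receptors tested, a separate family of neuronal survival factors, 1 rose in MaP R172H/- against MaP -/- tumors, where 3.67% of all genes rose. Ntf5, which encodes neurotrophin 4/5, was at 8.68 CPM on average in MaP R172H/- and 2.65 CPM in MaP -/- tumors, a log2 fold change of 1.75 (SE 0.440, FDR = 0.0265 from edgeR). It was no longer called without YZ4, JM663-T2 or JM833-T2, with an FDR of up to 0.0629. The most abundant receptor, Ntrk2, had a log2 fold change of 0.40 (SE 0.777). In MaP R172H/- against MaP R245W/- tumors 0 of 6 were called by edgeR and 3 had an unadjusted p under 0.05. DESeq2 called 4 of the 8 listed there. The shares of all genes were 9.4%, 25.9% and 12.4%.

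Other genes were ranked by how like Nrtn they were across the tumors. Among 15197 protein-coding genes that passed the filter, Nrtn included, the genes most like Nrtn in log2 CPM over all 18 tumors were St6galnac2 (Pearson r = 0.933), Fadd (0.910), Mettl26 (0.903), Leng1 (0.898) and Tusc2 (0.897). The annotation holds 2 overlapping genes named St6galnac2 that may share reads, and the one meant here is ENSMUSG00000110170.2. Fadd, an adaptor of death receptors, had means of 10.3 CPM in MaP R172H/-, 7.18 CPM in MaP R245W/- and 6.002 CPM in MaP -/- tumors, so likeness over all tumors largely follows the groups. After the mean of each group was subtracted, the genes most like Nrtn were Tfap2c (r = 0.959), Cited4 (0.945), Large2 (0.939), Celsr2 (0.937) and Elf5 (0.936). Tfap2c encodes the transcription factor AP-2 gamma of mammary epithelium, and Elf5 a factor of luminal progenitor and alveolar cells. With Spearman's measure 1 of the 5 genes was shared over all tumors and 2 of the 5 after the group means were subtracted. These correlations are descriptions over 18 tumors that share depth, platform and cell makeup.

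The 4 tumors with the least Nrtn also held the least Tfap2c. It was 2.11 CPM in JM1126, 7.22 CPM in JM1233, 8.08 CPM in JM663-T2 and 1.91 CPM in JM779-T1, which held 0, 0.209, 0.132 and 0.0323 CPM of Nrtn. Tfap2c ran from 72.3 to 235 CPM in the other 14 tumors. Elf5 was also lowest in these 4 tumors, at 2.05 to 21.7 CPM, and 51.5 CPM or more in the others. Twist2, among the genes least like Nrtn after subtraction of group means (r = -0.916), was highest in them, at 3.28 to 32.1 CPM. It was 1.85 CPM or less in the others. The publication lists JM1126 as a sarcoma, and JM1233, JM663-T2 and JM779-T1 as sarcomatoid carcinomas. JM1133, RM0014 and JM663-T1 are also listed as sarcomatoid, with Tfap2c at 235, 157 and 147 CPM. Gdnf was highest in the 4 tumors with the least Nrtn. It was also among the genes least like Nrtn after subtraction of group means (r = -0.824, rank 15081). Gfra2 had r = -0.750 and Ret r = -0.357 on this measure. How far these values rest on the 4 tumors, with 0 to 7 counts of Nrtn, was not tested. Within the MaP R172H/- group, Gfra2 was lowest (1.52 CPM) in YZ10, the tumor with the least Nrtn of that group. It was 6.60 CPM in YZ7 and 3.52 CPM in YZ6, which held the most Nrtn. YZ11, with Nrtn at 4.65 CPM, held the highest Gfra2 of the group, 6.95 CPM. The MaP R245W/- tumors JM1133 and JM1564 held 235 and 196 CPM of Tfap2c, above every MaP R172H/- tumor, with Nrtn at 1.68 and 1.14 CPM. A part of Tfap2c in the level of Nrtn was not tested.

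**Figure D4:**
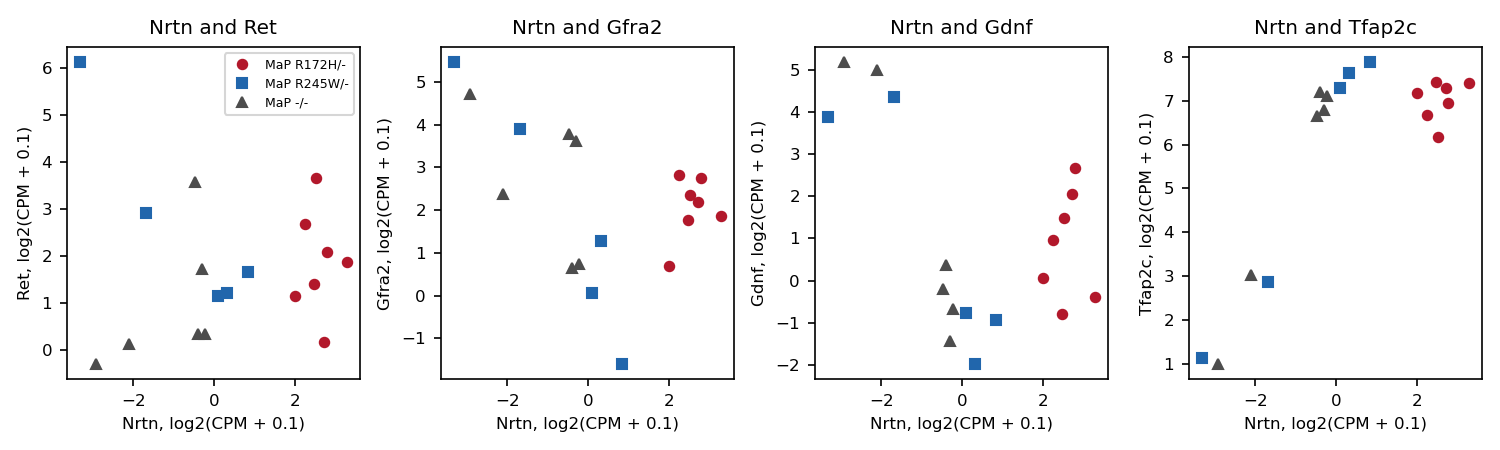
Nrtn on the horizontal axis against Ret, Gfra2, Gdnf and Tfap2c on the vertical axes, all as log2(CPM + 0.1), with 1 point per tumor and the group by color and shape. The MaP R172H/- tumors stand to the right at Ret, Gfra2 and Tfap2c levels that other tumors also reach, and the 4 tumors at the left have high Gdnf and low Tfap2c.

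Markers of other cells moved as follows beside these results. The 10 luminal epithelial markers summed to a median of 3971 CPM in MaP R172H/- (range 388 to 10242), 4479 CPM in MaP R245W/- and 1803 CPM in MaP -/- tumors. Of these, 0 of 10 were called by edgeR in MaP R172H/- against MaP -/- tumors, 2 had an unadjusted p under 0.05 and DESeq2 called 1, where the shares of all genes were 8.4%, 24.7% and 11.4%. All 10 log2 fold changes of the luminal markers were above 0 there, with a median of 1.20 beside 0.00 over all genes. The sum did not follow Nrtn in every tumor: it was lowest in the MaP R172H/- group in YZ7, with Nrtn at 6.78 CPM, and 4049 CPM in JM1126, with Nrtn at 0. The luminal marker Epcam was 24.6 CPM in YZ7. In the 4 tumors with the least Nrtn, Epcam was 426 CPM in JM1126, 259 CPM in JM663-T2, 34.8 CPM in JM1233 and 10.2 CPM in JM779-T1. Of 10 Schwann and glial markers, led by Sox10, the sum had a median of 463 CPM in MaP R172H/-, 355 CPM in MaP R245W/- and 188 CPM in MaP -/- tumors. Of 9 tested in MaP R172H/- against MaP -/- tumors 0 were called by edgeR, 4 had an unadjusted p under 0.05 and DESeq2 called 1, beside the same shares of all genes. Their log2 fold changes were above 0 for 8 of the 9, with a median of 1.63. Against MaP R245W/- tumors 7 of 9 were above 0, with a median of 1.12 and 0 called by edgeR. The 13 neuronal markers summed to a median of 6.39, 5.77 and 10.4 CPM in the 3 groups, and the highest tumor was YZ7 at 215 CPM. Only 3 of the 13 were tested in MaP R172H/- against MaP -/- tumors, with 2 fold changes above 0 and a median of 0.34 on the log2 scale. Stmn2, the one neuronal marker called by edgeR in MaP R172H/- against MaP -/- tumors, fell (-5.71, FDR = 0.0323 from edgeR), where 4.73% of all genes fell. DESeq2 called 2 of the 13 listed, where it called 11.4% of all genes. Stmn2 was tested in 12 fits without 1 tumor and lost without YZ2, YZ3, YZ6, YZ10, YZ11 or JM663-T2, with an FDR of up to 0.106 and a value of -3.58 without JM663-T2. Against MaP R245W/- tumors 5 neuronal markers were tested, with 2 above 0 and a median of -0.03. Of these Nefl fell (-3.50, FDR = 0.0345 from edgeR), where 6.49% of all genes fell. Nefl was lost without YZ2, YZ4, YZ6, YZ10, JM1233 or JM1126, with an FDR of up to 0.0867. It was also lost without YZ11, RM0014 and JM1233 together (FDR = 0.130 from edgeR). Between 1 and 7 of the 13 neuronal markers were at 0 in each tumor.

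Genes of fibroblasts, macrophages and endothelium that passed the test in MaP R172H/- against MaP -/- tumors were lower, where 4.73% of all genes fell. Of 8 fibroblast markers 2 fell, Pdgfra (-2.49, FDR = 0.0265) and Lum (-1.98, FDR = 0.0253, both from edgeR). Of 6 macrophage markers Adgre1 (-1.04, FDR = 0.00688) and Mrc1 (-2.03, FDR = 0.0236, both from edgeR) fell, and of 5 endothelial markers Pecam1 (-0.77, FDR = 0.0135 from edgeR) fell. Log2 fold changes were above 0 for 4 of the 8 fibroblast, 1 of the 6 macrophage and 0 of the 5 endothelial markers, with medians of -0.31, -0.66 and -0.25 beside 0.00 over all genes. Adgre1 and Pecam1 were called with any single tumor left out, while Pdgfra was lost without YZ2 (FDR = 0.0556) and was -1.38 without JM779-T1, Mrc1 was lost without JM663-T2 (FDR = 0.0526) and Lum without YZ2, YZ10 or JM833-T1 (FDR up to 0.0537, all from edgeR). Lum and Adgre1 also fell in MaP R172H/- against MaP R245W/- tumors, and so did 6 of 6 tested skeletal muscle genes, among them Tnnt3 (-5.57, FDR = 0.00244 from edgeR), where 6.49% of all genes fell. The muscle genes summed to 1059 CPM in JM1233, 195 CPM in JM1133 and 45.6 CPM in JM1126, while JM1564 (7.23 CPM) and RM0014 (3.13 CPM) lay within the MaP R172H/- range of 2.15 to 17.7 CPM. Without JM1233 the log2 fold change was -3.35 for Tnnt3, -3.68 for Acta1, -3.56 for Myh1 and -2.04 for Mylpf, all still called by edgeR. Lum was lost in 7 of the 12 fits without 1 tumor (YZ2, YZ3, YZ7, YZ10, YZ11, JM1233 or JM1126, FDR up to 0.193, -1.47 without JM1126) and Adgre1 in 4 (YZ2, YZ4, YZ10 or JM1233, FDR up to 0.138, -0.60 without JM1233). Of the muscle genes Actn3 was lost without JM1233 (-1.997, FDR = 0.144) and Myh4 without YZ2, YZ4, YZ6, YZ10 or JM1233 (FDR up to 0.117, -3.18 without JM1233, all from edgeR). Without YZ11, RM0014 and JM1233 together Lum (FDR = 0.0947), Adgre1 (0.366), Acta1 (0.0555), Actn3 (0.153) and Myh4 (0.0992) were not called by edgeR, while Tnnt3, Mylpf and Myh1 were. Basal and myoepithelial markers (8 tested), T and B cell markers (6 tested) and adipocyte markers (5 tested) had 0 called by edgeR in MaP R172H/- against MaP -/- tumors. These lists had medians of 2.49, -1.92 and -3.61 on the log2 scale, with 5, 3 and 2 genes at an unadjusted p under 0.05 and 2, 0 and 1 called by DESeq2, where 24.7% and 11.4% of all genes were, and 8 of 8 basal fold changes were above 0. Single tumors carried much of these sums: basal markers summed to 3516 CPM in YZ4 and 2152 CPM in YZ7 against 247 to 661 CPM in the other MaP R172H/- tumors, T and B cell markers to 250.4 CPM in JM833-T2 against 8.05 to 24.4 CPM in the other MaP -/- tumors, and adipocyte markers to 3184 CPM in JM833-T1 and 331 CPM in JM833-T2 against 24.5 to 69.3 CPM. The part of these cells in the levels of Nrtn and its receptors was not tested.

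Genes near Nrtn were described to see how far the raised level extended along chromosome 17. Of 34 other genes within 300 kb, 22 were tested in MaP R172H/- against MaP -/- tumors, and 5 rose and 0 fell, where 3.67% of all genes rose. Their median log2 fold change was 0.77, with a range of -0.63 to 1.39, all below that of Nrtn. Dus3l, a tRNA-modifying enzyme gene and the nearest tested gene at a gap of 4.33 kb, ran from 23.9 to 55.8 CPM in MaP R172H/- and from 13.8 to 22.5 CPM in MaP -/- tumors, a log2 fold change of 0.94 (SE 0.202, FDR = 0.0127 from edgeR). The other 4 were Rpl36 (1.39), Mllt1 (0.88), Clpp (0.80) and Safb (0.55). Clpp was lost without JM836-T1, JM663-T1, JM663-T2 or JM833-T2 (FDR up to 0.0581 from edgeR), and the other 4 of the 5 were called with any single tumor left out. On the other side the nearest tested gene was Ndufa11, a subunit of respiratory complex I at a gap of 27.1 kb, with a log2 fold change of 0.31 (SE 0.186, FDR = 0.325 from edgeR). Of 24 tested neighbors 2 rose in MaP R172H/- against MaP R245W/- tumors, Safb (0.58, FDR = 0.0104) and Rfx2 (1.51, FDR = 0.0164, both from edgeR), and the median log2 fold change of the 24 was 0.30. Each was called with any single tumor left out, but not without YZ11, RM0014 and JM1233 together (Safb 0.42, FDR = 0.126, and Rfx2 1.40, FDR = 0.115, both from edgeR). The median over 22 neighbors in MaP R245W/- against MaP -/- tumors, where no gene was called by edgeR (2527 of 21452 had an unadjusted p under 0.05, and DESeq2 called 424), was 0.31.

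**Figure D5:**
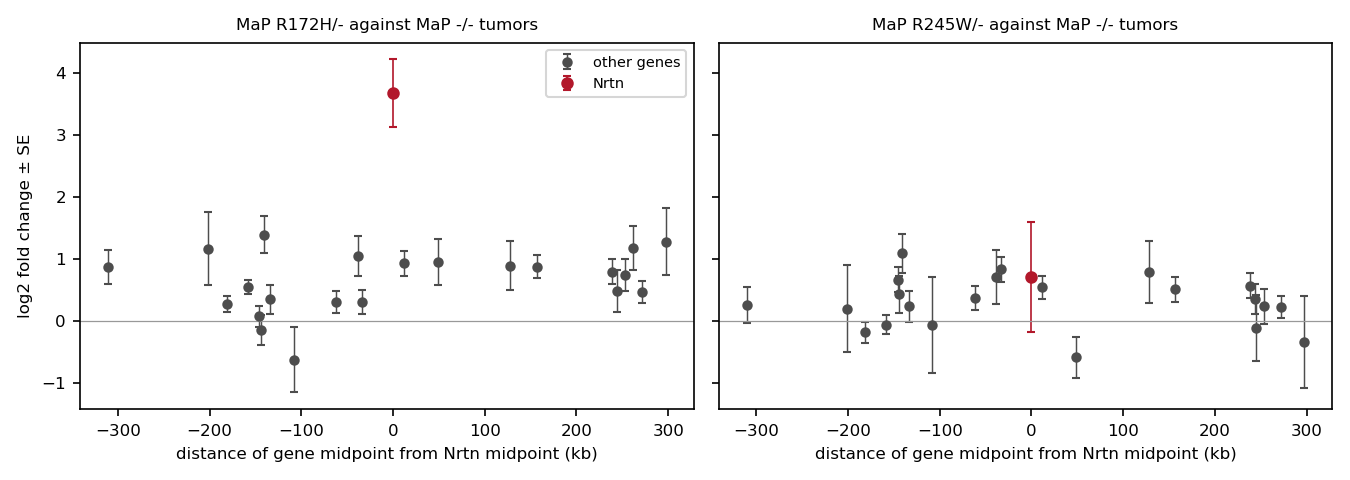
Log2 fold change (vertical axis, with SE as error bars) of the tested genes within 300 kb of Nrtn, by the distance of their midpoints from that of Nrtn in kb. Nrtn (red) is at 3.68 in MaP R172H/- against MaP -/- tumors, and the other genes lie between -0.63 and 1.39.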

How the data were processed

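RNA from 18 mouse mammary tumors was analysed. The authors used STAR 2.7.10b for alignment to GRCm39 and RSEM 1.3.3 for gene quantification on GENCODE M34, and deposited raw whole-number counts. Tumors were grouped by their labels. The strand setting of the counting is not given in the sources used here. Of 57126 genes, 56620 were matched by identifier to GENCODE M39 for names, positions and exon lengths, and promoter and upstream sequence was read from GRCm39.

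The edgeR package 4.0.16 was run under R 4.3.3: counts were scaled by TMM, filtered with filterByExpr and tested by quasi-likelihood, with Benjamini-Hochberg FDR over all genes tested (20954, 21452 and 22481) and calls at an FDR below 0.05. A separate fit compared each mutant with MaP -/- tumors, and the mutants with each other in a fit of all 18 tumors. Both tumors of mouse JM663 and both of mouse JM833 entered these fits as separate replicates. FDRs of single genes are those with tumors, not mice, as the unit. With tumors of 1 mouse summed, calls in MaP R172H/- against MaP -/- tumors went from 1760 to 1126. The labels do not say that tumors of 1 group are separate litters or dates, so p-values measure the spread between these tumors. DESeq2 1.42.0, other filters, fold change thresholds, summed tumors of 1 mouse and each tumor left out were alternatives. CPM uses TMM library sizes. Correlations used log2 CPM with a prior count of 2. The test was checked on simulated data. Figures were drawn with matplotlib 3.10.9.

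Members and lists were chosen with earlier results of these data known. Named genes were the members, related receptors, Trp53, Nr5a2, called and most abundant genes of 19 lists, the nearest tested genes to Nrtn and the 5 most like it. Epcam, Twist2 and the remaining neighbors were named after their values were seen.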

Additional observations from a re-analysis of the deposited data

Results flagged for a closer look

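A total of 39 sets of values, 1 gene in 1 group each, were searched for a tumor far from the others of its group by Dixon's criterion, which marks about 1 in 20 such sets by chance, and 14 were marked. Sets of members low in most tumors are marked easily, and no explanation was weighed. Artn reached 10.4 CPM in JM1233 and 12.9 CPM in JM779-T1, while the next highest tumors of their groups held 0.946 and 3.82 CPM. Ret reached 69.2 CPM in JM1126 and 11.7 CPM in JM833-T1, with 7.43 and 3.21 CPM in the next highest. Gfra1 reached 78.4 CPM in YZ4, 69.8 CPM in JM1126 and 28.4 CPM in JM836-T1, with 16.5, 13.0 and 11.7 CPM in the next highest. Gfra3 was 3.39 CPM in YZ7 and 0.192 CPM in JM1126, the latter only 6 counts. Gfra4 was 3.72 CPM in YZ6 and 6.92 CPM in JM833-T2. Gfral was 0.345 CPM in YZ2, or 8 counts. Gdf15 was 1.54 CPM in YZ7 and Sdc3 was 121 CPM in JM833-T2.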

How the results depend on the processing

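The count of called genes in MaP R172H/- against MaP -/- tumors, 1760, became 1051 and 287 at absolute log2 fold changes above 1 and 2, 3432 by DESeq2 and 1126 with tumors of 1 mouse summed, and ran from 1067 (without JM663-T2) to 1866 (without YZ7) with each tumor left out. In MaP R245W/- against MaP -/- tumors, 0 in edgeR (2527 at an unadjusted p under 0.05), it became 2 in a fit of 3 groups, 424 by DESeq2 and 0 to 3 (without JM779-T1) with each tumor left out. In MaP R172H/- against MaP R245W/- tumors, 2114, it became 1392 and 526 at the fold thresholds, 1401 with at least 10 counts in every tumor, 3703 by DESeq2 and 1086 without YZ11, RM0014 and JM1233, and ran from 1525 (without RM0014) to 2362 (without YZ7). At 0.5 CPM, Nrtn was present in 14 tumors in place of 9 and Pspn in 3 in place of 0.

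The log2 fold change of Nrtn kept its direction under every alternative run. With each tumor left out, in MaP R172H/- against MaP -/- tumors Artn ran from -0.53 to 0.86 and Gfra1 from -0.32 to 1.03. In MaP R245W/- against MaP -/- tumors Gdnf ran from -1.58 to 0.077, Artn from -2.32 to 0.72, Pspn from -0.32 to 0.073 (0.012 with tumors of 1 mouse summed), Gfra1 from -0.94 to 0.94 and Gfra2 from -1.15 to 0.86. In MaP R172H/- against MaP R245W/- tumors Artn ran from -0.19 to 2.04, Pspn from -0.23 to 0.45, Ret from -2.36 to 0.32 and Gfra1 from -0.89 to 1.58 (-0.052 without YZ11, RM0014 and JM1233). Members other than Nrtn were called in none of these fits, and low counts limit what could be seen for Gfra3, Gfral and Pspn. No paired analysis was possible because the replicate numbers only name the tumors of a group and tie no tumor to one of another group.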
